A study of Mus musculus with 20 samples.

Results

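The acute phase and neutrophil-linked secreted genes are 10 genes chosen by name, Lcn2, Ltf, Cp, Saa1, Saa2, Saa3, S100a8, S100a9, Il1b and Csf3r, each of which was found as 1 of the 43346 genes of the count table. They were measured by RNA sequencing in 20 breast tumors of F1 hybrid mice, females aged up to 20 weeks from a cross of BALB/c-neuT males with FVB/J females. All the mice carried neuT, an activated rat Her2/neu oncogene under the MMTV promoter, which is active in the mammary epithelium. The tumors arose spontaneously and were taken at a late stage, 1 per mouse, and RNA came from a small piece of each frozen tumor. The sample names mark 9 tumors as Lo and 11 as Hi, a label whose meaning is not given, and carry a number by which tumors are named here.

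The acute phase response is a change in secreted proteins that follows infection, injury or cancer. It is driven by the cytokines IL-1, TNF and IL-6, which act through NF-kB, C/EBP factors and STAT3, in the liver and also in epithelia at the site. The serum amyloid A proteins, the copper-carrying ferroxidase ceruloplasmin (Cp) and the siderophore-binding lipocalin (Lcn2) are among its products. The mammary epithelium secretes the iron-binding lactoferrin (Ltf) into milk, and lactoferrin and lipocalin 2 are also stored in neutrophil granules. S100a8 and S100a9 form calprotectin, an abundant cytosolic protein of neutrophils, and Csf3r is the receptor for G-CSF, which governs neutrophil production.

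The sequence before the start site is shown for the 3 serum amyloid A genes, because Saa1 and Saa2 were high in the same 2 tumors and Saa3 was not, and for Ltf, which varied most on the log2 scale. Each run is the 250 bases upstream of a RefSeq start (GRCm38.p6), written in the direction of the gene. Capitals mark a match to the C/EBP pattern TTNNGCAA on either strand or to the TATA-like letters CATAAA, which did not overlap each other.
Saa1 (chr7:46742981-46743230, minus strand): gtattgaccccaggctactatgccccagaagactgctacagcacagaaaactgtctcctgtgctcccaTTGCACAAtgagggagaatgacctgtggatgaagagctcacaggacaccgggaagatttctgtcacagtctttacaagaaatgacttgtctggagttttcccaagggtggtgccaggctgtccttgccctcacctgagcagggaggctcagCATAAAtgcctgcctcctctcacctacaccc
Saa2 (chr7:46751583-46751832, plus strand): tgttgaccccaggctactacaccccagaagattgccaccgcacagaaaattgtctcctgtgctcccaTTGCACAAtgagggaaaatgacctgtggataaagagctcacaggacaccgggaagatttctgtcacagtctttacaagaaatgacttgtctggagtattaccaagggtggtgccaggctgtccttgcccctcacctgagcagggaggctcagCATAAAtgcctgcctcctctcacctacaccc
Saa3 (chr7:46715677-46715926, minus strand): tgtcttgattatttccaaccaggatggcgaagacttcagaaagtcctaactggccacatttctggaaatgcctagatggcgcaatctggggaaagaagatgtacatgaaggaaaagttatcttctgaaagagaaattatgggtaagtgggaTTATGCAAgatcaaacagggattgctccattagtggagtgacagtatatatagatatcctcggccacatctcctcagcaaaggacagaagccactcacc
Ltf (chr9:111019042-111019291, plus strand): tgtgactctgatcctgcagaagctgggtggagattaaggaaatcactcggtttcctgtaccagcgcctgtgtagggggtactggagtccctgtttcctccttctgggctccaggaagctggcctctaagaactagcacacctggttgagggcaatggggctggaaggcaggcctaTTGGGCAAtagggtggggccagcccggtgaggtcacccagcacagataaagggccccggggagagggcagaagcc
The Saa1 and Saa2 windows were 94.8% identical over the columns of a gapped alignment, with the same 8-base match (TTGCACAA) and the same CATAAA near the start. For Saa1 and Saa3 this identity was 52.7%, and what unrelated windows would give was not computed. The C/EBP pattern was found in the window of 7 of the 10 members (Saa1, Saa2, Saa3, Lcn2, Ltf, S100a9 and 1 of 2 windows of Cp) and in 9.57% of 32807 windows of the same length. CATAAA was in the windows of Saa1, Saa2 and Lcn2 and in 10.8% of all windows, and TATAAA was in those of S100a8, Il1b and Cp and in 12.4%. The STAT pattern TTCNNNGAA (7.02% of windows) and the NF-kB consensus (3.90%) had no match in the windows of the 10 members. CATAAA was chosen after the sequences were seen, and a match describes letters only.

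Counts on genes summed to 38765682 to 65465755 over the tumors (median 49881779), and 18883 genes passed the filter on low counts, including all 10 members. An annotated ribosomal RNA locus took 6.29% to 27.7% of the counts. The luminal epithelial markers Krt8, Krt18 and Epcam were high in every tumor, with at least 28612, 25446 and 38178 counts. The other markers of that list were lower, with at least 10601 counts for Cdh1, 9539 for Cldn3, 2386 for Cldn4 and 460 for Krt19. The Hi 3 tumor held keratinocyte marker RNA (Krt1 at 6394 counts), and Hi 8 held less of it (248, at most 19 elsewhere). The Hi 5 tumor held hepatocyte RNA (Alb at 836 counts, at most 15 elsewhere). Since these are bulk samples, fewer cells of a type and less RNA per cell cannot be told apart.

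The 10 genes lay at very different levels. For comparison between genes, reads were scaled by the listed gene length and the library total (RPKM). Lcn2 was the highest, with a median of 1583 RPKM, followed by Ltf at 168.4 RPKM and Cp at 41.3 RPKM. Calprotectin was far lower, with medians of 3.45 RPKM for S100a8 and 2.94 RPKM for S100a9. The cytokine Il1b followed at 2.35 RPKM and the receptor Csf3r at 1.32 RPKM. Saa3 had a median of 1.20 RPKM, Saa2 of 0.739 RPKM and Saa1 of 0.572 RPKM. Lcn2 exceeded Ltf in 20 of 20 tumors, Ltf exceeded Cp in 19, Cp exceeded S100a8 in 20 and Il1b exceeded Csf3r in 20. Other neighbors in this order overlapped: S100a8 was above S100a9 in 16 tumors, S100a9 above Il1b in 14, and Csf3r above Saa3, like Saa2 above Saa1, in 10. The listed length of Lcn2 (2623 bases) is longer than its principal transcript (915 bases), with which its median would be 4538 RPKM. That of Cp (9566 bases) would give 96.4 RPKM with its 4092-base transcript. By transcript lengths Il1b (3.31 RPKM) came before S100a9 (2.99) and S100a8 (2.78), so the order of these 3 depends on the length used. The counts of tumors above were made with the listed lengths. With the transcript length of Cp, Ltf would exceed Cp in fewer than 19 tumors.

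**Figure D1:**
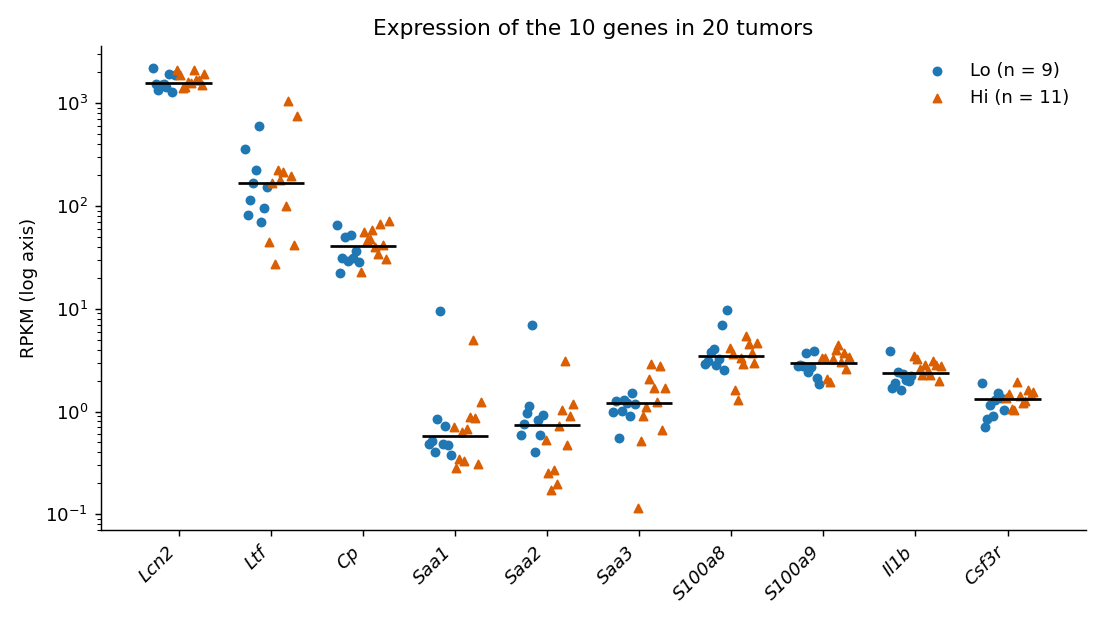
Expression of the 10 genes in RPKM on a log axis, with 1 point per tumor (circles, 9 Lo tumors; triangles, 11 Hi tumors) and a bar at the median of the 20 tumors. Lcn2 sits at the top in every tumor, Ltf spreads widely below it, and Saa1 and Saa2 each have 1 Lo and 1 Hi tumor above the rest.

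Lcn2 (ENSMUSG00000026822, mm10 Chr2, 32384633 to 32388252) was both the most abundant and the steadiest of the 10 genes. The rest of the text compares tumors in CPM, counts scaled to the library size after TMM normalization. Lcn2 ranged from 3471 CPM in Lo 9 through a median of 4377 to 5411 CPM in Lo 11, a 1.56-fold range. It took between 0.337% and 0.580% of all counts, and only 17 of the genes tested had a higher median RPKM. The SD of its log2 CPM over tumors was 0.198, below the median SD of all genes tested (0.251).

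Ltf (ENSMUSG00000032496, Chr9, 111019292 to 111042766) varied most on the log2 scale. Its level was 70.5 CPM in Hi 3 at the lowest, 467 CPM at the median and 2915 CPM in Hi 8 at the highest, a 41.3-fold range. The next tumors were Hi 11 at 2099 CPM and Lo 7 at 1595 CPM, so that high levels were seen under both labels. The SD of log2 CPM was 1.38, higher than that of 99.4% of genes. Cp (ENSMUSG00000003617, Chr3, 19957054 to 20009145) ranged from 209.5 CPM in Hi 1 through 383 to 687 CPM in Hi 11, an SD of 0.479 on the log2 scale. The gene Hps3 overlaps the end of Cp, but had at most 1282 counts in a tumor, against 8315 or more for Cp.

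Some neutrophil markers were at or near 0 in these tumors, and others were not. Ly6g, which encodes the antigen used to identify mouse neutrophils, had 0 counts in 17 of 20 tumors and at most 4 in the others. The granule genes Mpo, Elane, Camp and Ngp, listed here as markers of neutrophil precursors, had at most 6, 6, 7 and 6 counts. The chemokine receptor Cxcr2 had 9 to 46 counts. The other markers of the mature neutrophil list had at most 73 counts, except the surface antigen gene Cd177, at 12735 to 37324 counts. The granule protease gene Prtn3 had 9 to 179 counts. Pglyrp1, which encodes a granule protein and is in the list of acute phase genes here, had 8442 to 31348 counts. The 15 markers of the mature and precursor lists summed to 238 to 731 CPM, nearly all of it Cd177, and Lcn2 was 6.36 to 21.4 times this sum. Without Cd177 and Prtn3, left out after their values were seen, the 13 others summed to 1.95 to 4.03 CPM, and Lcn2 was 1016 to 2395 times that. S100a8, S100a9 and Csf3r were far below Lcn2, with medians of 73.5, 84 and 233 counts.

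**Figure D2:**
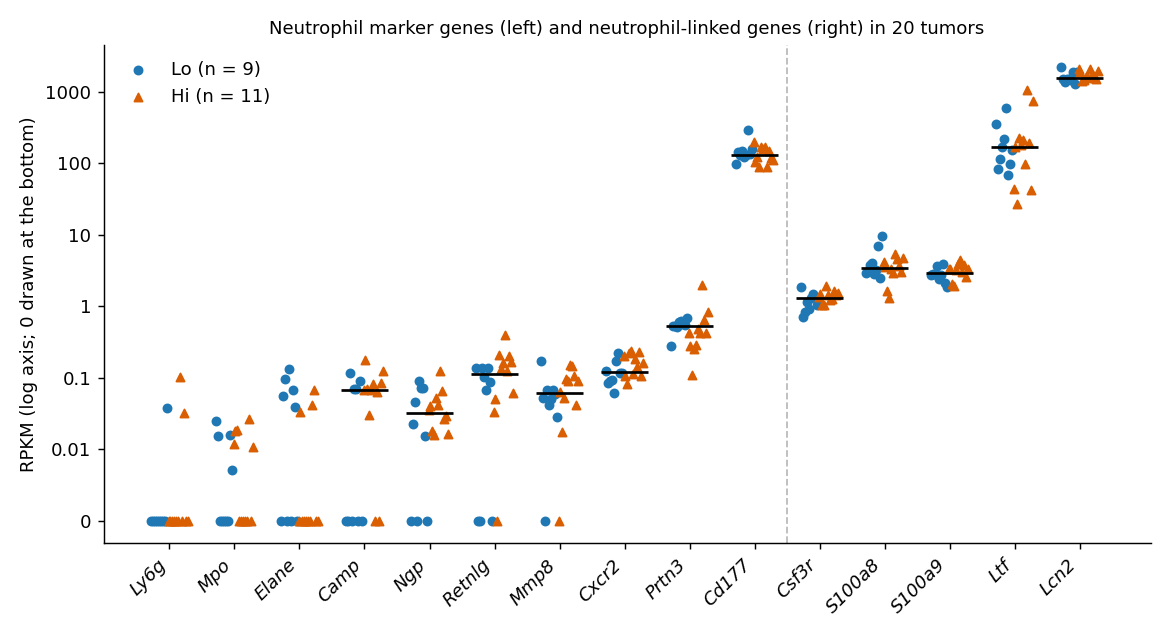
RPKM on a log axis of 10 neutrophil marker genes (left of the dashed line) and 5 neutrophil-linked genes of the set (right), with 1 point per tumor, a bar at the median where it is above 0, and values of 0 drawn at the bottom. Ly6g, Mpo, Elane, Camp and Ngp are at or near 0, Cd177 is not, and Lcn2 and Ltf lie far above Csf3r, S100a8 and S100a9.

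Saa1 and Saa2 stood out in the same 2 tumors. These genes encode the acute phase serum amyloid A proteins carried on lipoproteins, and Saa3 encodes a form made outside the liver. Saa1 (ENSMUSG00000074115, Chr7, 46740501 to 46742980) had 10 to 40 counts in 18 tumors, 277 in Lo 6 and 157 in Hi 8. In CPM this was 21.4 times the median of the other 18 tumors in Lo 6 and 9.45 times in Hi 8. Saa2 (ENSMUSG00000057465, Chr7, 46751833 to 46754314) had 5 to 39 counts in the same 18 tumors, 205 in Lo 6 and 100 in Hi 8, or 12.4 and 4.72 times their median. The other 18 tumors did not reach the level of either tumor for either gene. Saa3 (ENSMUSG00000040026, Chr7, 46711998 to 46715676), which lies beside them, had 33 counts in Lo 6 and 35 in Hi 8, at 1.32 and 1.09 times the median of the others. Saa3 was lowest in Hi 1 (3 counts, 0.0578 CPM), had a median of 0.648 CPM and was highest in Hi 6 (1.55 CPM).

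The gene for albumin, made by hepatocytes, had 0 counts in both Lo 6 and Hi 8. The 5 hepatocyte markers summed to 1.83 to 16.8 CPM in Lo and 1.11 to 25.3 CPM in Hi tumors, carried mainly by Ahsg outside Hi 5. The tumor with hepatocyte RNA, Hi 5, had Saa1 and Saa2 within the range of the other tumors. Saa1 and Saa2 transcripts are 93.9% identical, but none of the 510 possible 100-base stretches of Saa1 occurs unchanged in Saa2, and 13.2% of 50-base stretches do. How the counting treated reads that match both genes is not stated, so the split between them is uncertain, and the ratio of Saa1 to Saa2 RPKM ran from 0.336 in Hi 10 to 2.35 in Hi 4.

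**Figure D3:**
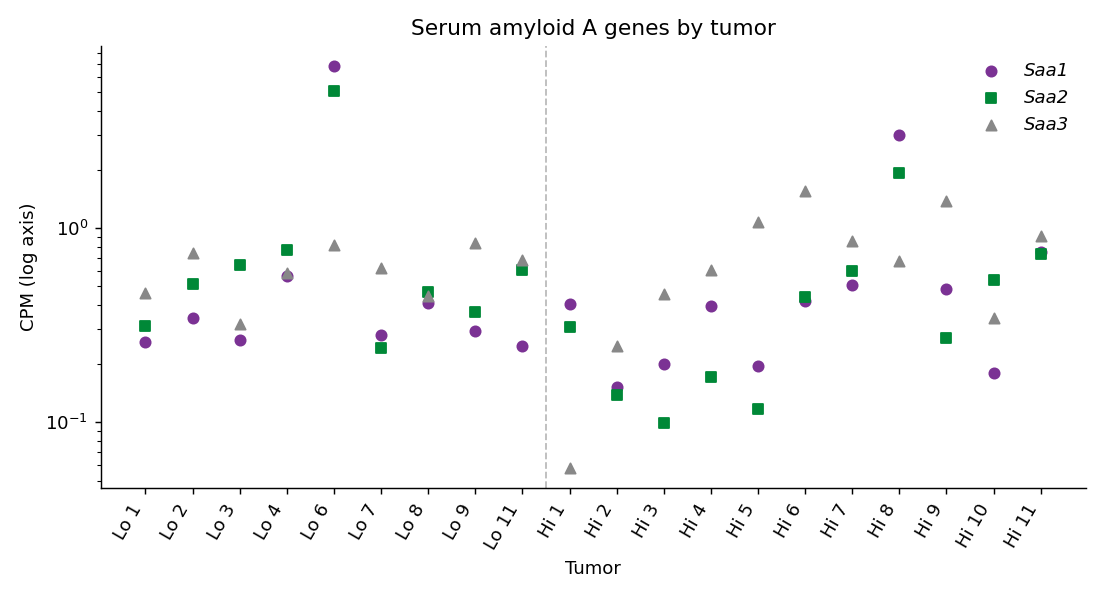
CPM on a log axis of Saa1 (circles), Saa2 (squares) and Saa3 (triangles) in each tumor, with the 9 Lo tumors left and the 11 Hi tumors right of the dashed line. Saa1 and Saa2 are above all other tumors in Lo 6 and Hi 8, where Saa3 is at 0.813 and 0.672 CPM.

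S100a8 (ENSMUSG00000056054, Chr3, 90669071 to 90670034) ranged from 0.531 CPM in Hi 4 through 1.33 to 4.13 CPM in Lo 11. S100a9 (ENSMUSG00000056071, Chr3, 90692632 to 90695721), its partner in calprotectin, ranged from 1.01 CPM in Hi 3 through 1.60 to 2.20 CPM in Hi 7. The partners were not in a fixed ratio. In Lo 11 the RPKM of S100a8 was 5.28 times that of S100a9, whereas the ratio was at most 1.77 in the other tumors and 1.16 at the median. Il1b (ENSMUSG00000027398, Chr2, 129364570 to 129371139), which encodes the cytokine IL-1 beta, ranged from 3.59 CPM in Lo 2 through 4.63 to 6.46 CPM in Lo 1. Csf3r (ENSMUSG00000028859, Chr4, 126024550 to 126044440) ranged from 2.82 CPM in Lo 2 through 4.62 to 6.76 CPM in Hi 5. Neither gene spread much more than a typical gene, with SDs of 0.269 and 0.296 on the log2 scale. The paper reports loss of a copy of Chr4, on which Csf3r lies, in the tumors of this cross that it karyotyped. The part of this loss in the level of Csf3r was not tested.

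No difference between Lo and Hi tumors passed the test in any of the 10 genes. Lcn2 was at 4418 ± 648 CPM (SD, n = 9) in Lo and 4390.4 ± 599 CPM (SD, n = 11) in Hi tumors. The fold change furthest from 0 was that of Saa2, at 0.241, 0.513 and 5.05 CPM (lowest, median and highest) in Lo tumors and 0.0992, 0.308 and 1.92 CPM in Hi tumors. The groups overlapped in every gene. By edgeR's quasi-likelihood test the log2 fold change (Lo over Hi) of Saa2 was 1.03 (SE 0.58, unadjusted p = 0.0892, adjusted p = 0.984), but it was -0.01 by DESeq2 and 0.52 without Lo 6 and Hi 8, where that of S100a8 was 0.42 and 0.51. That of Ltf was -0.37 (SE 0.57, unadjusted p = 0.522). At an adjusted p under 0.05, 0 members were called (background 0.0% of 18883 genes), and 0 had an unadjusted p under 0.05. Of all genes, 1045 (5.53%) had an unadjusted p under 0.05, and DESeq2 called 1 gene (0.0053%) and 0 members.

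Whether the members followed the cells of the tumor was examined with scores of marker lists, the mean z-score of log2 CPM over the list. Slopes are log2 changes per SD of the score, tested with edgeR over all genes. With the mature neutrophil score, 0 members and 0 genes were called (background 0.0% of 18876 genes), while 1106 genes (5.86%) and 2 members, Saa3 (0.40, SE 0.16, adjusted p = 0.847) and S100a8 (0.29, SE 0.13, adjusted p = 0.847), had an unadjusted p under 0.05. With Cd177 left out of the score, 1 member did (Saa3, 0.40), and S100a8 was at 0.20 (adjusted p = 0.852). DESeq2 called 7 genes (0.0371%) and 0 members. Of the 7 genes of this score, 6 had at most 73 counts in a tumor. With the macrophage score, whose markers were well measured (Csf1r at 1930 counts or more), 0 members were called (background 1.57%), and 1 of them, Saa3 (0.41, SE 0.16, adjusted p = 0.186), had an unadjusted p under 0.05, as did 17.6% of all genes. This score was added after the values were seen, and DESeq2 was not run on it.

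With the luminal epithelial score, 0 members were called by edgeR (background 4.38% of 18876 genes, 321 up and 506 down). S100a8 had a slope of 0.38 (SE 0.12, adjusted p = 0.0608), Ltf of 0.81 (SE 0.27, adjusted p = 0.0778) and Lcn2 of 0.11 (SE 0.04, adjusted p = 0.125), and these 3 had an unadjusted p under 0.05, as did 4232 genes (22.4%). DESeq2 called 2 of them among 1540 genes (8.16%), S100a8 (adjusted p = 0.0297) and Ltf (adjusted p = 0.032). The Hi 3 tumor had the lowest epithelial score, the lowest Ltf and S100a9 and the next lowest Lcn2 and S100a8. Its keratinocyte markers summed to 333 CPM, against at most 37.8 CPM elsewhere, and their part in these slopes was not tested. Without Hi 3 and Hi 11, the tumors farthest from the median score, the slope of S100a8 was 0.39 (adjusted p = 0.152) and that of Ltf 0.58 (adjusted p = 0.428).

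Ltf and, less closely, Cp followed several milk genes. This relation was looked for after the values of Ltf had been seen. Among 13827 genes whose log2 CPM averaged 1 or more, the 3 whose levels were most like those of Ltf over the 20 tumors were the casein genes Csn1s1 (Pearson's r = 0.983), Csn2 (r = 0.981) and Csn1s2a (r = 0.973). Csn2, which encodes beta-casein, ranged from 49.2 CPM in Hi 3 to 4123 CPM in Hi 8, the same tumors that held the lowest and the highest Ltf. For Csn2 and Ltf, Spearman's rho was 0.983, given as a description, since the gene was picked as one of the most alike. The r was 0.972 without Hi 3 and Hi 8, 0.971 within Lo and 0.990 within Hi tumors. On a score of 6 milk genes without Ltf, edgeR gave Ltf a slope of 1.30 (SE 0.08, adjusted p = 8.6e-10) and Cp a slope of 0.37 (SE 0.06, adjusted p = 0.00253). The score holds Csn1s1 and Csn2, picked above as most like Ltf, so the slope and p of Ltf are also a description. Ltf and Cp were the 2 members called, both up (background 0.625% of 18877 genes, 0.609% up and 0.0159% down). Saa1 (0.98, SE 0.30, adjusted p = 0.212) and Saa2 (0.65, SE 0.28, adjusted p = 0.456) had an unadjusted p under 0.05, as did 9.7% of all genes, with slopes of 0.21 and 0.05 without Lo 6 and Hi 8. The call of Cp was lost without Hi 1 and Hi 11, the tumors farthest from the median milk score (0.32, adjusted p = 0.112). Lcn2 had a slope of 0.03 (SE 0.05, adjusted p = 0.911). Not every milk gene went with Ltf. Per doubling of Ltf, 4 of the 6 were called up (Csn1s1, Csn2, Wap and Glycam1), as were 0.62% of all genes. Lalba and Csn3 were not called, and Csn3, with the highest median of the 6, ranged only from 5753 to 9857 CPM.

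**Figure D4:**
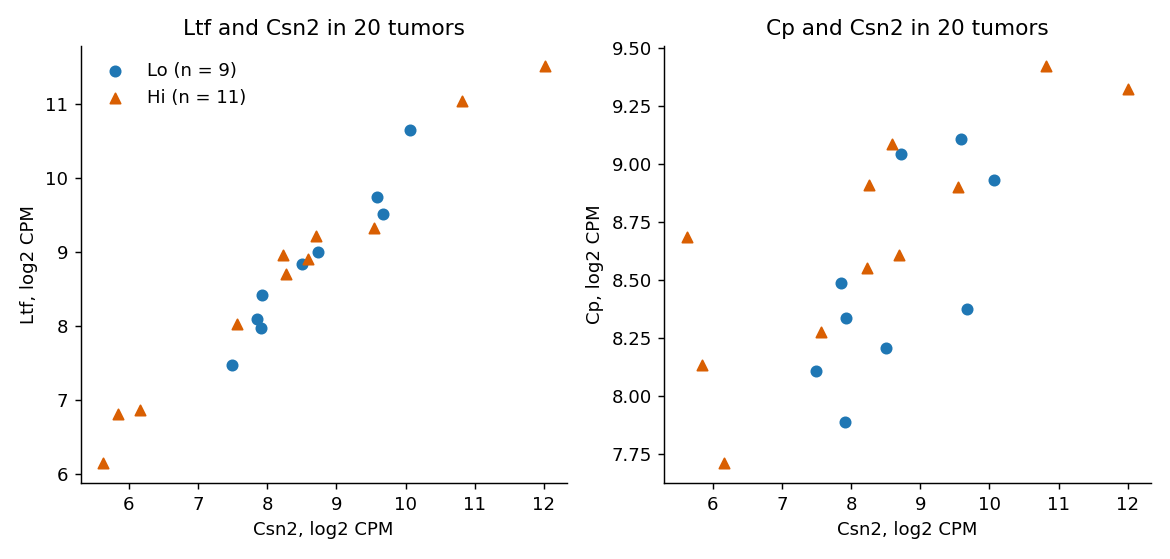
Log2 CPM of Ltf (left) and Cp (right) against that of Csn2, the beta-casein gene, with 1 point per tumor (circles, 9 Lo tumors; triangles, 11 Hi tumors). The Ltf points lie close to a line (r = 0.981) from Hi 3 to Hi 8, and the Cp points scatter more widely (r = 0.705).

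Among the 45 pairs of members, over which adjusted p are given, Pearson's r of log2 CPM ran from -0.24 to 0.85 with a median of 0.20, and 28 pairs lay between -0.3 and 0.3. On this scale 4 pairs had an r above 0.5. On the scale of log2(RPKM + 1), which uses the library total without TMM factors, there were 7 such pairs. They were the same 4 with Lcn2 and Il1b (0.594, against 0.341 in log2 CPM), Il1b and Csf3r (0.668, against 0.494) and Cp and Csf3r (0.554, against 0.464). How often pairs of other genes reach such an r was not computed. The pairs were planned as a description without adjusted p, and the adjustment given here covers these 45 pairs alone. In the edgeR slopes on 1 member given below, 5.73% (on Saa3) to 21.2% (on S100a8) of all genes had an unadjusted p under 0.05. Saa1 and Saa2 had an r of 0.849 (permutation p = 8e-05, adjusted p = 0.0036, rho = 0.614, p = 0.00482, adjusted p = 0.045), which fell to 0.544 without Lo 6 and Hi 8. Ltf and Cp had an r of 0.725 (permutation p = 0.00032, adjusted p = 0.0072, rho = 0.750, p = 0.00021, adjusted p = 0.00945), and 0.807 without Hi 3 and Hi 8. Lcn2 and S100a8 had an r of 0.634 (permutation p = 0.00205, adjusted p = 0.03075, rho = 0.660, p = 0.00201, adjusted p = 0.045), and 0.543 without Lo 9 and Hi 3. It was 0.524 within Lo tumors (exact permutation p = 0.147, n = 9) and 0.785 within Hi tumors. Cp and Il1b had an r of 0.507 (permutation p = 0.0226, adjusted p = 0.234, rho = 0.618, p = 0.00451, adjusted p = 0.045), which was 0.782 within Lo and 0.237 within Hi tumors (permutation p = 0.483 in Hi) and 0.835 without Hi 1 and Hi 11. Saa2 and S100a8 had an r of 0.444 (permutation p = 0.0521, adjusted p = 0.268, rho = 0.612, p = 0.005, adjusted p = 0.045), which was 0.642 without Lo 6 and Hi 8, 0.0863 within Lo and 0.656 within Hi tumors. The partners S100a8 and S100a9 had an r of 0.394 (permutation p = 0.0859, adjusted p = 0.37, rho = 0.553, p = 0.0126, adjusted p = 0.081), which was 0.773 without Lo 11 and Hi 4, -0.00411 within Lo and 0.835 within Hi tumors. S100a9 is counted at 51 to 128 reads a tumor, so counting error adds to its spread.

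**Figure D5:**
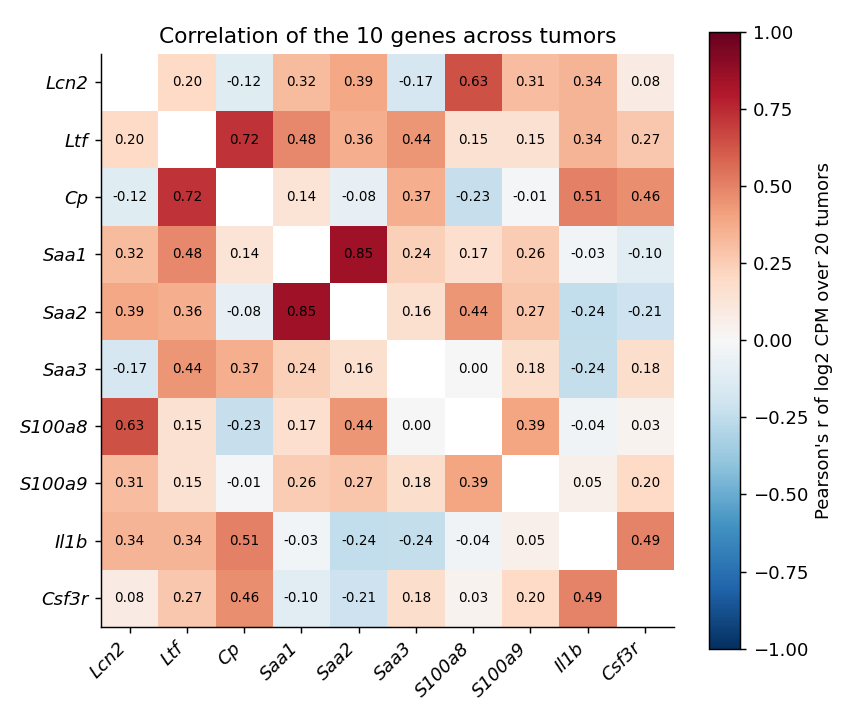
Pearson's r of log2 CPM over the 20 tumors for each pair of the 10 genes, colored from blue (-1) through white (0) to red (1), with r printed in each cell. The strongest cells are Saa1 with Saa2 (0.85), Ltf with Cp (0.72) and Lcn2 with S100a8 (0.63), and most of the rest are pale.

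Slopes on the level of a single member, tested over all genes, gave few calls among the other 9. Lcn2 spanned only 1.56-fold over the tumors, so a slope per doubling of it extends past the observed levels. Per doubling of Lcn2, the slope of S100a8 was 2.19 on the log2 scale (SE 0.55, adjusted p = 0.0351), the 1 member called (background 3.45% of 18882 genes, 1.87% up and 1.57% down). Without Lo 9 and Hi 3, the tumors farthest from the median Lcn2, it was 2.04 (adjusted p = 0.194), and 0 genes of the 651 called before were called. Per doubling of S100a8, 0 members were called (background 3.63%), with Lcn2 at 0.20 (SE 0.06, adjusted p = 0.0844), the 1 member with an unadjusted p under 0.05, as had 21.2% of all genes. Per doubling of Saa3, 0 members were called (background 0.101%) and 0 had an unadjusted p under 0.05 (5.73% of all genes). Per doubling of Csf3r, 0 were called (background 0.0053%), and Cp (0.78, SE 0.31, adjusted p = 0.273) and Il1b (0.47, SE 0.20, adjusted p = 0.297) had an unadjusted p under 0.05, as had 13.6% of all genes. DESeq2 was not run on these slopes. On 2 further members added after the values were seen, Cp rose by 0.24 per doubling of Ltf (SE 0.05, adjusted p = 0.0229, background 0.63%, 0.62% up and 0.0106% down) and Ltf by 2.19 per doubling of Cp (SE 0.37, adjusted p = 0.0025, background 1.98%, 1.65% up and 0.334% down). These were the only members called on Ltf and on Cp, and the first was lost without Lo 6 and Hi 8 (adjusted p = 0.115).

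Among genes outside the set, those most like 5 further members over the 20 tumors were found in the same way, with r as a description. For Lcn2 they were Gm16933 (r = 0.897), the gamma-actin gene Actg1 (r = 0.897) and Plekha2 (r = 0.862). For S100a8 they were Lxn (r = 0.882), Ppp1ca (r = 0.879) and Hdgf (r = 0.872), and for Cp the retinoblastoma gene Rb1 (r = 0.927), the Wnt ligand gene Wnt5b (r = 0.926) and Ogfrl1 (r = 0.919). For Csf3r they were Dnase1l1 (r = 0.853), Slc9a3r2 (r = 0.816) and Acbd4 (r = 0.811). For Saa3 they included 3110053B16Rik (r = 0.712) and Smug1 (r = 0.711), for which r fell to 0.213 and 0.326 without Hi 1 and Hi 2.

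Nuclear-retained RNA differed between the tumors, and many genes moved with it, 3 members among them. A score of Malat1 and Neat1, noncoding RNAs kept in the nucleus, was added after the values were seen. On it, Saa1 fell by 1.03 per SD of the score (SE 0.29, adjusted p = 0.0183), Saa2 by 0.89 (SE 0.25, adjusted p = 0.0179) and Lcn2 by 0.13 (SE 0.04, adjusted p = 0.0306). These 3 were called against a background of 17.2% of 18881 genes (11.2% up and 6.07% down). Without Lo 6 and Hi 8, which had a low nuclear score, 0 members were called (Saa1 fell by 0.19, adjusted p = 0.391, Saa2 by 0.33, adjusted p = 0.204, and Lcn2 by 0.13, adjusted p = 0.0642), and 2431 genes were. Without the 2 tumors farthest from the median score, 4 members were called, with S100a8 (-0.44, adjusted p = 0.017) as the addition, and 2685 of 18881 genes were. On the share of the ribosomal RNA locus, 0 members were called (background 0.122%), and 4 had an unadjusted p under 0.05 (Saa1, Saa2, Il1b and Csf3r), as had 10.5% of all genes. With the 2 most extreme tumors in that share left out, 1 member had, and the slope of Saa1 went from 0.65 to -0.64. The part of either in the levels of the members was not tested.

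Other genes of the pathway were taken from lists. Of 21 other acute phase genes, 13 passed the filter, and the liver products Crp, Apcs, Saa4 and Orm3 had a median of 0 counts. Apart from Pglyrp1, the lipopolysaccharide-binding protein gene Lbp had the highest median, with a range of 188 to 433 CPM. On the milk score, 2 of the 13 were called up and 0 down, Lbp (0.28, SE 0.04, adjusted p = 8.39e-05) and Lrg1 (0.27, SE 0.05, adjusted p = 0.0129), and the median slope of the list was 0.04, against -0.00 over all genes. Between Lo and Hi tumors, and on the neutrophil, epithelial, Lcn2, Saa3, S100a8 and Csf3r levels, 0 of the 13 were called. On the macrophage score, the complement genes C3 (0.34, SE 0.08, adjusted p = 0.0399) and Cfb (0.36, SE 0.09, adjusted p = 0.0447) were called up, and C3 fell by 0.29 on the nuclear score (SE 0.09, adjusted p = 0.0243). Lbp and Lrg1 were also called up per doubling of Ltf. Per doubling of Cp, the long pentraxin gene Ptx3 (1.46, SE 0.37, adjusted p = 0.0414) and Lbp (0.44, SE 0.11, adjusted p = 0.0307) were called up.

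Several of the inducing cytokines were near 0. Of 19 cytokine and receptor genes, 15 passed the filter. Il6 had at most 10 counts, Il17a at most 2 and Il22 none in any tumor, and a count of 0 allows up to 3 counts in a library. The IL-6 family cytokine gene Lif had 245 to 638 counts, and the receptor subunit genes Il1rap, Il6st and Osmr had medians of 109, 80.6 and 78.2 CPM. The list gave 1 call on S100a8, Tnfrsf1a (0.16, SE 0.04, adjusted p = 0.0369), 1 on Cp, Osmr (0.34, SE 0.07, adjusted p = 0.0125), and 0 in the other comparisons. All 11 transcriptional regulators passed the filter, Stat3 among them with a median of 240.4 CPM and Cebpb with 89.4 CPM. Of these, Cebpd was called on the epithelial score (0.23, SE 0.05, adjusted p = 0.0237) and 0 elsewhere.

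Of 10 receptor genes for the secreted members, 7 passed the filter. The Lcn2 receptor gene Slc22a17 was at 41.0 to 70.3 CPM, whereas Lrp2, which encodes another receptor for it, had at most 21 counts. Tlr4 (0.71, SE 0.10, adjusted p = 0.000647) and Tlr2 (0.41, SE 0.10, adjusted p = 0.0378), receptors for calprotectin and serum amyloid A, were called up per doubling of Cp and in no other comparison, and Ager was called up on the nuclear score (0.30, SE 0.10, adjusted p = 0.0341). Of 5 neutrophil-recruiting chemokine genes, 3 passed the filter, Cxcl1 with 85 to 412 counts, Cxcl5 with 16 to 82 and Cxcl2 with 3 to 36, and 0 were called in any comparison.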

How the data were processed

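RNA of 20 tumors was sequenced from TruSeq mRNA libraries in paired-end reads trimmed to 100 bases. The authors aligned them to mm10 within the MapRseq workflow, and the submitters' processing notes name TopHat2 2.0.12 and featureCounts 1.4.4 (and hg19, whose use is not stated). The authors deposited raw counts per gene, 1 column per tumor, with none pooled. The strand setting and annotation release are not given in the sources used here.

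Counts were tested with edgeR 4.0.16 (R 4.3.3; TMM, filterByExpr, quasi-likelihood test, Benjamini-Hochberg over all genes tested), with DESeq2 1.42.0 as an alternative. CPM used TMM factors (prior count 2 on the log2 scale), and RPKM used the listed length and total count. Slopes took a list score or the log2 CPM of 1 member as covariate. Pairs were compared over tumors with 100000 permutations, or exactly within the 9 Lo tumors. The 10 members, 5 pathway lists and 14 marker lists were chosen with earlier results of these data known. The rule for named genes covered the members, up to 3 called genes per list and, for Lcn2, Saa3, S100a8 and Csf3r, the 3 most similar genes (for Ltf and Cp, the same, added later), of which 1 is not reported here. Other list genes and gene levels were named after their values were seen. Each tumor came from 1 mouse. In simulated counts of 18883 genes, the Lo against Hi test found 165 of 200 that had been given a log2 change of 1 (8 unchanged genes called), and 163 of 200 with a slope of 0.5 on the neutrophil score (6 unchanged called). The changed genes were drawn at random from all genes tested, so these numbers do not tell how often a change in a given member would be found. Promoters came from RefSeq (all 10 members matched). No columns were left unmapped.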

Additional observations from a re-analysis of the deposited data

Results flagged for a closer look

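Of the 10 genes, 2 had a tumor far from the others among the 9 Lo tumors by Dixon's criterion (a gap to the next tumor above 0.493 of the range of log2 CPM), against 0.5 expected by chance, since chance picks out about 1 in 20 groups. Both were the Lo 6 tumor. For Saa1 the gap was 0.764 of the range, with 277 counts against at most 40 in the other 18 tumors outside Hi 8. For Saa2 it was 0.635, with 205 counts against at most 39. The limits used here did not extend to 11 tumors, so the Hi tumors were not tested, though Hi 8 was their highest tumor for both genes. Saa1 and Saa2 have nearly the same sequence, so these are not independent observations.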

How the results depend on the processing

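Alternatives for the milk, macrophage, nuclear RNA and ribosomal RNA scores, for the Ltf and Cp slopes and without Lo 6 and Hi 8 were chosen after seeing the data. Of 580 member estimates under alternatives, 26 changed sign, 0 of them called. Between Lo and Hi tumors, DESeq2 called 1 gene and a fit without a filter on low counts 1, against 0, and 0 members under every alternative. Lo and Hi tumors share 9 numbers, but same-numbered tumors did not deviate together (r from -0.418 to 0.208, above 0.1 in 3, none best with its own number). Under a fit with that replicate block, 0 genes were called and 872 had an unadjusted p under 0.05. DESeq2 called 2 members on the epithelial score, against 0. Without the tumors farthest from the median covariate, the members called were 1 instead of 2 on the milk score and 0 instead of 1 on Lcn2. In the same setting they were 4 instead of 3 on nuclear RNA (2685 of 18881 genes called) and 2 instead of 1 on Cp (Il1b, 0.52, adjusted p = 0.0215). Without Lo 6 and Hi 8, they were 0 instead of 1 on Ltf and 0 instead of 3 on nuclear RNA. The pair Lcn2 and S100a8 weakened to 0.524 within Lo (exact permutation p = 0.147), and Cp and Il1b to 0.237 within Hi (permutation p = 0.483) and 0.437 without Lo 6 and Hi 8 (permutation p = 0.0715). The causes were not tested. Genes called differed by over 1.5 times for several slopes. The epithelial score (827) gave 1540 by DESeq2, 174 without its farthest tumors and 468 without Lo 6 and Hi 8, and the milk score (118) gave 197, 58 and 57. Without the farthest tumors and without Lo 6 and Hi 8, Lcn2 (651) gave 0 and 333, S100a8 (686) 36 and 421, Ltf (119) 61 and 50, and ribosomal RNA (23) 1 and 10. Without the farthest tumors, Saa3 (19) gave 0, Cp (374) 241 and the macrophage score (297) 9. With no filter, Saa3 gave 41, Csf3r (1) 62 and Ltf 188. The neutrophil score (0) gave 7 by DESeq2 and 2 with no filter, and Csf3r gave 0 to 3 otherwise. Counts under 50, as for Saa1 to Saa3 in most tumors, limit their precision.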
